A study of Mus musculus with 12 samples.

Results

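Chemokine ligands are the members of the Ccl, Cxcl, Cx3cl and Xcl families, and every one that the array measured with a probe set of a single gene is described here in mouse hepatocytes treated with TGF-β1. A probe set belonged to the family when the platform's probe table paired it with exactly 1 symbol and that symbol began with Ccl, Cxcl, Cx3cl or Xcl followed by a digit. This gave 39 probe sets of 34 genes, out of 21789 tested probe sets of 19938 genes. Another 7 probe sets on chemokine genes (the Ccl21 and Ccl27 copies) carried several symbols and were left out.

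Chemokines are small secreted proteins that form gradients and draw leukocytes carrying the matching G protein-coupled receptor into a tissue. CC ligands act mainly on monocytes, macrophages, eosinophils and lymphocytes, and CXC ligands on neutrophils, T cells and B cells. In liver, Kupffer cells, endothelium and stellate cells make them, and hepatocytes themselves release several during the acute phase response or under interferon, through transcription factors such as NF-κB. TGF-β1 signals through Smad proteins and is known for damping inflammatory output of macrophages.

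The cells were primary murine hepatocytes (mouse HPC) from male C57BL/6 animals, isolated with collagenase and kept in HepatoZYME-SFM on collagen. Medium was renewed 4 h after seeding, the cells were grown for 24 h more, and medium was exchanged once again 1 h before the start. The 4 groups were an untreated control and cells given 1 ng/ml recombinant human TGF-β1 for 20 min, 2 h or 4 h, with 3 arrays in each group and replicate numbers 1 to 3 in every group. The control carries no time of its own, so hours since the medium exchange and treatment cannot be told apart. Levels are log2 signals as deposited after RMA (a background correction, normalization and summary for arrays), and changes are differences of them, so that 1 unit is a 2-fold change. The study describes 3 biological replicates for every cell type. Nothing in the labels states whether the replicates came from separate mice, so p values measure only the spread between these arrays.

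The array gives a signal to genes that are not transcribed, so a floor was set first. It is the 95th percentile, 6.26, of the mean signals of 1205 probe sets for olfactory and vomeronasal receptors, whose median was 5.004. Of all tested probe sets 67.5% had a mean above it. Among the chemokine ligands 25 probe sets of 20 genes lay above the floor and 14 genes at it. Cxcl16 lay just above, at 6.27, and Ccl24 just below, at 6.26. The 14 genes at the floor were Ccl1, Ccl4, Ccl8, Ccl12, Ccl20, Ccl22, Ccl24, Ccl26, Ccl28, Cxcl3, Cxcl5, Cxcl11, Cxcl15 and Xcl1, with mean signals between 4.89 for Cxcl15 and 6.26 for Ccl24. Among them Ccl20 is the CCR6 ligand, Ccl22 a CCR4 ligand, Ccl28 a CCR10 ligand and Xcl1 the XCR1 ligand of NK and T cells, and Cxcl11 is annotated by RefSeq as a transcribed pseudogene. For these genes the smallest adjusted p at 4 h was 0.502, and their changes at 4 h lay between -0.09 and 0.12. No level is read into a signal at the floor, and the signals of different probe sets are not ranked against each other.

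**Figure D1:**
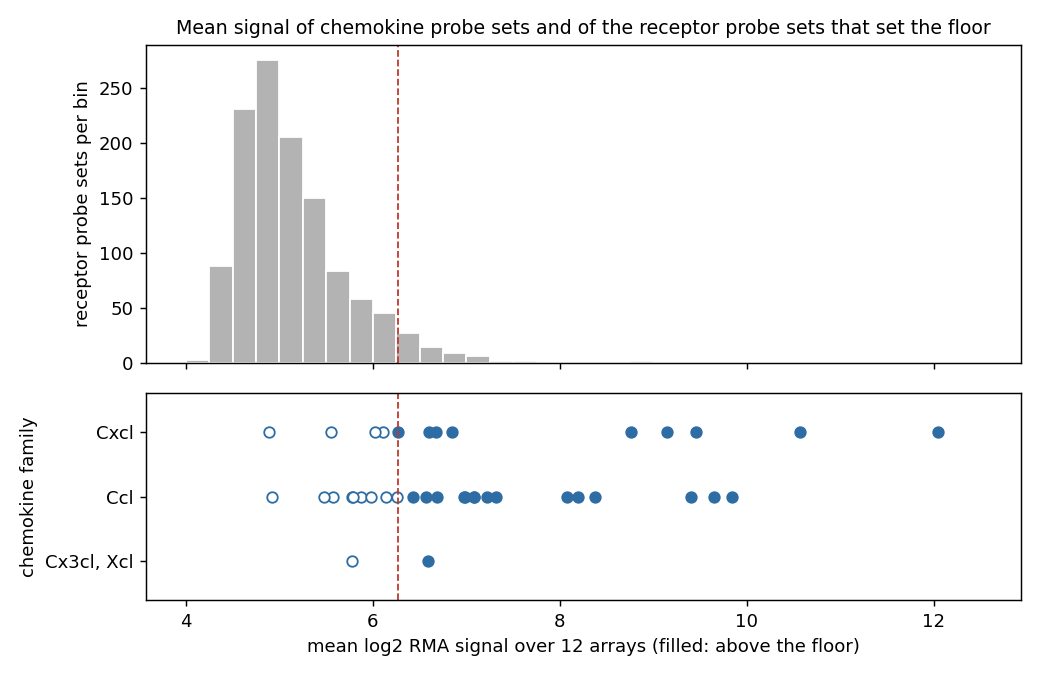
Mean log2 signal over the 12 arrays. The upper panel counts the 1205 receptor probe sets in bins 0.25 wide, the lower panel shows each chemokine probe set as a point, filled above the floor (dashed line, 6.26), and 25 of the 39 points are filled.

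Replicate 1 stood apart from replicates 2 and 3 across the array, and chemokine ligands were among the genes that carried this. Averaged over the 4 groups, replicate 1 was at least 1 log2 unit away from the mean of the other two for 4 of the 39 probe sets (10.3%), as for 1.98% of all tested probe sets. Relative to the other two it stood at -2.22 for Cxcl9 and -1.28 for Cxcl13, but at 1.41 for Ccl7 and 1.14 for Ccl5. The difference was present in untreated cultures, where Cxcl9 read 10.79 in replicate 1 and 12.86 and 12.82 in the others. The study's methods report a strong batch effect on the mouse HPC chips, without saying which arrays it covered. What set the replicate 1 arrays apart was not tested. Summed macrophage markers stood at -0.15 in replicate 1 relative to the other two, although 7 of the 24 were lower in it and their median difference was 0.04. Larger differences of summed signal were seen for the B and dendritic cell markers (-0.99), the cholangiocyte markers (0.81) and the endothelial markers (0.50). The median differences of these lists were 0.07, 0.04 and 0.30. A sum follows its brightest member, which was Ly6d (-1.85) in the first list and Sox9 (1.15) in the second.

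At 4 h the signals of 4 chemokine ligands were lower than in the control: Ccl5, Cxcl13, Cxcl2 and Ccl9. None was higher. The call was an adjusted p under 0.05 (limma, Benjamini-Hochberg over all tested probe sets, with the replicate number as a block). Without the block none of the 4 passed (adjusted p 0.957 to 0.996, limma). The 4 genes are 10.3% of the 39 probe sets, and over all tested probe sets 3.02% were called lower and 1.57% higher. An unadjusted p under 0.05 at 4 h was found for 8 of the 39, and for 17% of all. The median change of the 39 probe sets was 0.03, against 0.02 over all tested probe sets. In 10 of the 39 probe sets (25.6%) the 4 h array was lower than its control in 3 of 3 replicates, as it was in 17.4% of all tested probe sets. RNA was taken from whole cultures, and fewer cells of a type and less RNA per cell cannot be told apart.

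**Figure D2:**
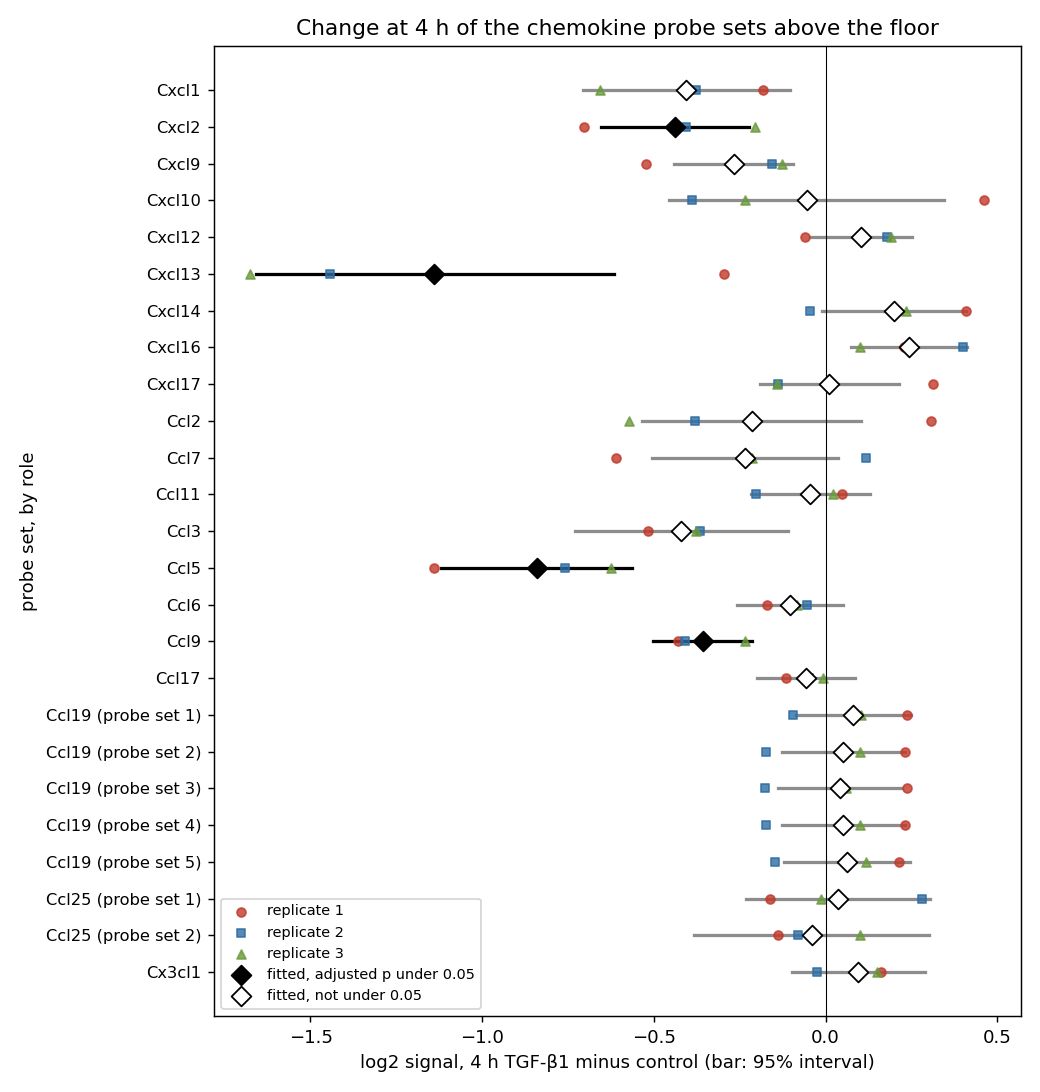
Change in log2 signal at 4 h with TGF-β1 minus control for the 25 chemokine probe sets above the floor, ordered by role. Diamonds are fitted changes with 95% intervals, small points are the 3 replicates. Filled diamonds mark the 4 genes with an adjusted p under 0.05, all to the left of 0, with Cxcl13 at -1.14 and Ccl5 at -0.84. Probe sets 2 and 4 of Ccl19 hold identical values.

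Ligands of CCR1, a receptor of monocytes, macrophages and T cells, held 2 of the 4 calls. Ccl5 (RANTES, chromosome 11 from 83525778 to 83530518 on GRCm38.p6), which attracts T cells and monocytes, read 10.67, 9.40 and 9.24 in control replicates 1, 2 and 3, the order used for every gene. It read 10.12, 9.25 and 9.26 at 20 min, 10.32, 8.74 and 9.04 at 2 h and 9.53, 8.65 and 8.62 at 4 h. Replicate 1 was above the others in every group, and within each number the 4 h array was the lowest of its 4. Ccl5 fell by 0.84 ± 0.13 (SE, n = 3) at 4 h, to 55.8% of the control signal (adjusted p = 0.00496, limma). The F test over the 3 later time points also passed for it (adjusted p = 0.0303). The call at 4 h was lost without replicate 3 (adjusted p = 0.0872), and over its 25 alternatives the adjusted p lay between 0.00109 and 0.996.

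Ccl9 (MIP-1γ), a CCR1 ligand of the macrophage lineage in mouse, read 10.23, 9.56 and 9.56 in the control, 10.06, 9.49 and 9.39 at 20 min, 10.22, 9.49 and 9.51 at 2 h and 9.80, 9.15 and 9.32 at 4 h. Its replicate 1 was again high in all groups, and the 4 h array was the lowest in each replicate, yet the 4 h and control arrays overlapped across replicates. Ccl9 fell by 0.36 ± 0.07 at 4 h (SE, n = 3; adjusted p = 0.0121, limma), to 78.0% of the control. The call held in 16 of 25 alternatives. It was lost without replicate 1, 2 or 3, where the change was -0.32, -0.33 and -0.42, and likewise without control replicate 2, 4 h replicate 1 or 4 h replicate 2.

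Ccl3 (MIP-1α), which also acts on CCR1, read 6.99, 6.83 and 6.87 in the control, 6.98, 6.89 and 6.69 at 20 min, 6.24, 6.98 and 6.37 at 2 h and 6.47, 6.47 and 6.50 at 4 h. Every 4 h array lay under every control array. The change of -0.42 ± 0.14 (SE, n = 3) did not pass the test (adjusted p = 0.135, limma), and it passed when 2 h replicate 2, the highest of the 2 h arrays, was left out (adjusted p = 0.0171). Over the 24 alternatives the adjusted p of Ccl3 lay between 0.0171 and 0.712. Ccl3 and Cxcl2 were the 2 chemokine ligands whose 4 h arrays were lower with no overlap, 5.13% of the 39, as were 5.58% of all tested probe sets. Ccl6, another CCR1 ligand of mouse macrophages, read 6.65, 6.40 and 6.34 in the control, 6.75, 6.25 and 6.38 at 20 min, 6.57, 6.37 and 6.33 at 2 h and 6.48, 6.34 and 6.26 at 4 h. Its change at 4 h was -0.10 (95% interval -0.26 to 0.05). Ccl4 was at the floor, and its annotated interval overlaps that of Ccl3.

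Ligands of CXCR2, the receptor that brings neutrophils into tissue, were represented by 5 genes, of which Cxcl1 and Cxcl2 lay above the floor. Cxcl2 (MIP-2) read 9.73, 9.05 and 9.09 in the control, 9.52, 9.01 and 9.22 at 20 min, 9.61, 8.74 and 9.22 at 2 h and 9.03, 8.64 and 8.88 at 4 h. The highest 4 h array stood just under the lowest control array. Cxcl2 fell by 0.44 ± 0.10 (SE, n = 3; adjusted p = 0.0281, limma), to 73.8% of the control. The call was lost in 12 of 25 alternatives. These included leaving out any 1 of the replicates (changes of -0.31, -0.46 and -0.56), control replicate 1 or 2, or any 1 of the 4 h arrays.

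Cxcl1 (KC), which hepatocytes are known to release in the acute phase response, read 10.95, 10.45 and 10.68 in the control and 10.89, 10.64 and 10.65 at 20 min. It read 11.17, 10.48 and 10.08 at 2 h and 10.77, 10.08 and 10.03 at 4 h. Each 4 h array was below the control of its own number, with overlap across numbers through replicate 1. The change of -0.40 ± 0.14 (SE, n = 3) was close to that of Cxcl2 and did not pass (adjusted p = 0.136, limma). Without replicate 1 it was -0.52 and passed (adjusted p = 0.0492), and over 25 alternatives the adjusted p lay between 0.0196 and 0.996. The 95% interval of the Cxcl1 change, -0.71 to -0.10, covers the fitted change of Cxcl2. Cxcl3, Cxcl5 and Cxcl15 were at the floor.

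Cxcl13, which draws B cells through CXCR5 and is made by macrophages and stromal cells, showed the largest fitted change among the 39 chemokine probe sets. It read 7.91, 9.92 and 9.74 in the control, 8.80, 9.56 and 9.62 at 20 min, 7.29, 9.02 and 9.09 at 2 h and 7.62, 8.47 and 8.07 at 4 h. Here replicate 1 was the low one in every group, at -1.28 on average relative to the other two, and its control array lay below every 4 h array but its own. Replicates 2 and 3 were lower at each later time than at the time before, whereas replicate 1 was highest at 20 min and lowest at 2 h. Cxcl13 fell by 1.14 ± 0.24 (SE, n = 3) at 4 h, to 45.4% of the control signal (adjusted p = 0.0214, limma), with an F test that passed as well (adjusted p = 0.0444). At 2 h the change was -0.73 (adjusted p = 0.521). Without replicate 1 the change of Cxcl13 at 2 h was -0.78 and passed (adjusted p = 0.0406, range over 25 alternatives 0.0406 to 1). The 4 h call was lost in 11 of 25 alternatives, among them those without replicate 2 (-0.99) or replicate 3 (-0.87), and without control replicate 2 or 3 or 4 h replicate 2 or 3.

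**Figure D3:**
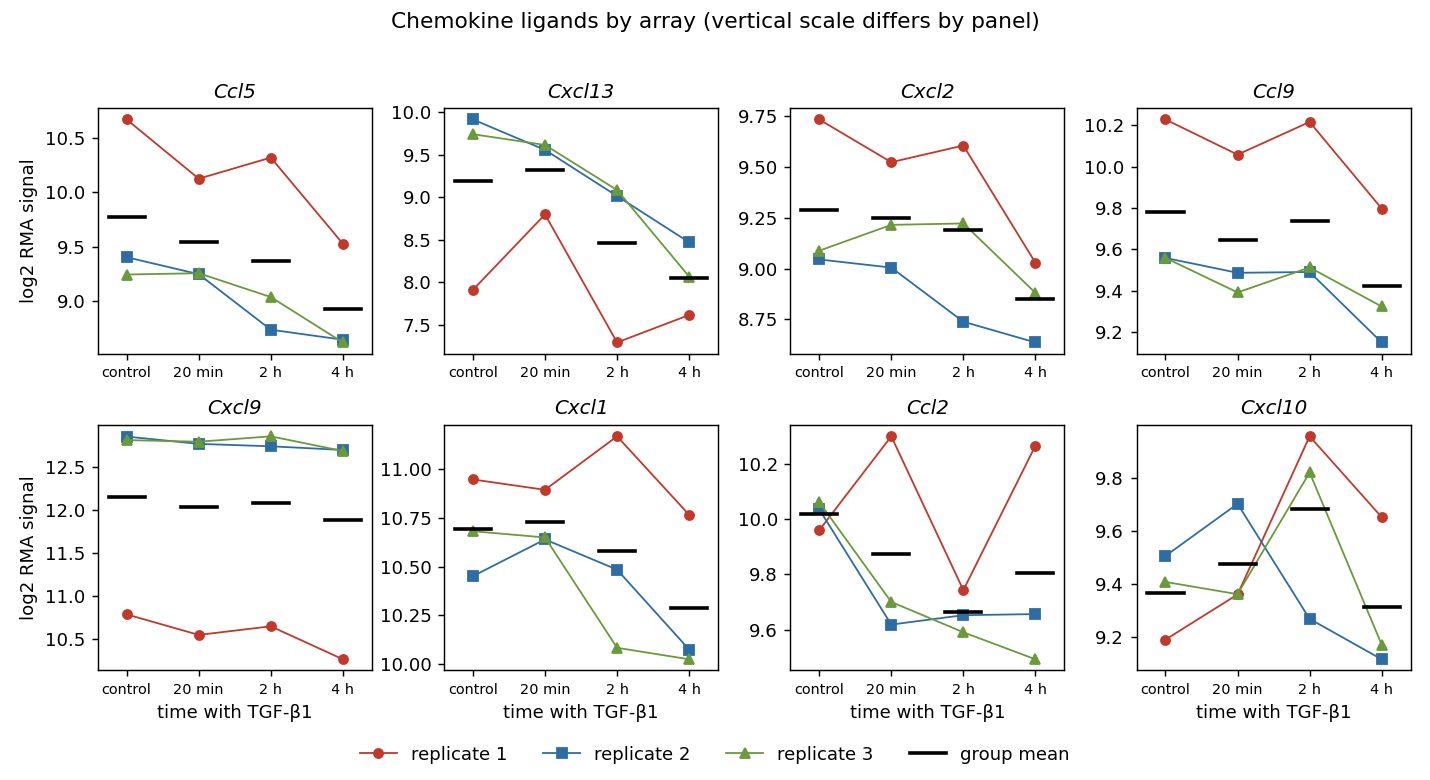
Log2 RMA signal of 8 chemokine ligands on each of the 12 arrays against time with TGF-β1, with lines joining arrays of 1 replicate number and black bars at the group means. The upper row holds the 4 genes called at 4 h, each lowest at 4 h within replicates 2 and 3, and the lower row shows Cxcl9 with replicate 1 below the other two throughout (-2.22 on average).

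The promoters of called members can be set side by side. The RefSeq promoter table (GRCm38.p6) held a window for 23 of the 34 genes, and the 250 bases before the annotated start are given for the called genes found there and for Cxcl1, the neighbour of Cxcl2, which was picked after its values were seen. They run 5′ to 3′ on the strand of the gene, and capitals mark matches to 4 motifs on either strand: the NF-κB consensus, the AP-1 site TGANTCA, the SMAD box CAGAC and the interferon-stimulated response element GAAANNGAAA. Matches of the palindromic NF-κB pair in Cxcl1 and Cxcl2 overlap each other by all but 1 base at each end.
Cxcl2: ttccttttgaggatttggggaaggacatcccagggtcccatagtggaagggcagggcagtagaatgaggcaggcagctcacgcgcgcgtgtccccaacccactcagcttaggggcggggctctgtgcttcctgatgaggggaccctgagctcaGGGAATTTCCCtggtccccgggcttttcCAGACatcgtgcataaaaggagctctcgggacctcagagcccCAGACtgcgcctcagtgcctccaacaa
Cxcl1: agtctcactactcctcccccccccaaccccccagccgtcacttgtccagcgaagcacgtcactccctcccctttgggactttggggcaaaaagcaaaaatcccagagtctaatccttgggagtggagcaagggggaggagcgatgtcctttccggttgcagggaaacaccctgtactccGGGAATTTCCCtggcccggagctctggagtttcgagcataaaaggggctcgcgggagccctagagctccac
Ccl9: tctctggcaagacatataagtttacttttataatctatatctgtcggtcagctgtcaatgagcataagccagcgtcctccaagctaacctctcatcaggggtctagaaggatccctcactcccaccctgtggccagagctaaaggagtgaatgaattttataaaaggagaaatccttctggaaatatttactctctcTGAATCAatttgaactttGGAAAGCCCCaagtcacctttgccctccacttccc
Cxcl13: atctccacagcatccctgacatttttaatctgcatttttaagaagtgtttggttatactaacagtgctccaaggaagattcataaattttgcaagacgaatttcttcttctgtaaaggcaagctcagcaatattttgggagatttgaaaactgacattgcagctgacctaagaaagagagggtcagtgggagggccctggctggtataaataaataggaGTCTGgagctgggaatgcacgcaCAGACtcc
Cxcl2 lies at chr5:90903649-90903898 and Cxcl1 at chr5:90890995-90891244, both on the plus strand. Ccl9 lies at chr11:83578637-83578886 on the minus strand and Cxcl13 at chr5:95956689-95956938 on the plus strand.

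The Cxcl2 and Cxcl1 windows share 1 unbroken NF-κB match, which begins 97 bases before the start in Cxcl2 and 71 bases before it in Cxcl1. Ccl9 holds an NF-κB match on the other strand from 35 to 26 bases before its start and an AP-1 match from 53 to 47 bases before it. Of these motifs Cxcl13 holds the SMAD box alone, at 2 places, and Cxcl2 also has 2. Over the 23 genes with a window, 6 held the NF-κB consensus, 3 the interferon-stimulated response element, 2 the AP-1 site and 8 the SMAD box. Of all 32851 windows of this length in the table, 3.9% held the NF-κB consensus, 2.98% the interferon-stimulated response element, 6.75% the AP-1 site and 42.2% the SMAD box. A match describes the letters of the window only.

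CXCR3 ligands attract activated T cells and NK cells and are classical interferon-γ targets. Cxcl9 (MIG) read 10.79, 12.86 and 12.82 in the control, 10.55, 12.77 and 12.80 at 20 min, 10.65, 12.74 and 12.86 at 2 h and 10.26, 12.70 and 12.69 at 4 h. Replicate 1 stood at -2.22 relative to the other two on average over all 4 groups. At 4 h each array was the lowest of its own replicate, with a change of -0.27 ± 0.08 (SE, n = 3) that did not pass (adjusted p = 0.084, limma). It passed with a trended and robust prior (adjusted p = 0.0308), and the range over its 25 alternatives was 0.0308 to 0.996. Without replicate 1 the change of Cxcl9 was -0.14 (adjusted p = 0.382). Cxcl10 (IP-10) read 9.19, 9.51 and 9.41 in the control, 9.36, 9.70 and 9.36 at 20 min, 9.96, 9.27 and 9.82 at 2 h and 9.65, 9.12 and 9.17 at 4 h. Its replicates ran in different directions, with replicates 1 and 3 highest at 2 h and replicate 2 at 20 min. The 4 h change of -0.05 had a 95% interval of -0.46 to 0.35.

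Of the ligands known for calling monocytes through CCR2, Ccl2 and Ccl7 lay above the floor. Ccl2 (MCP-1) read 9.96, 10.04 and 10.06 in the control, 10.30, 9.62 and 9.70 at 20 min, 9.74, 9.65 and 9.59 at 2 h and 10.27, 9.66 and 9.49 at 4 h. Replicates 2 and 3 were below their controls at all 3 later times, while replicate 1 was above its control at 20 min and 4 h. The 4 h change was -0.21 ± 0.15 (SE, n = 3; adjusted p = 0.518, limma), and without replicate 1 it was -0.48 and passed (adjusted p = 0.0115, range over 25 alternatives 0.0115 to 0.996). Without replicate 2 the change of Ccl2 was -0.13 and without replicate 3 it was -0.04. Ccl7 (MCP-3) read 9.34, 7.50 and 7.75 in the control, 8.85, 7.53 and 7.70 at 20 min, 9.14, 7.37 and 7.84 at 2 h and 8.73, 7.62 and 7.54 at 4 h. Replicate 1 was higher than the other two by 1.41 on average, and the change at 4 h was -0.23 (95% interval -0.51 to 0.04). Ccl8, whose CCR2 activity is known for the human protein, and Ccl12 were at the floor. Of the eosinophil-attracting CCR3 ligands, Ccl11 (eotaxin) read 7.06, 6.99 and 6.93 in the control, 7.14, 7.01 and 6.87 at 20 min, 7.06, 6.76 and 7.02 at 2 h and 7.11, 6.79 and 6.95 at 4 h, a change at 4 h of -0.04 with an interval of -0.22 to 0.13.

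The remaining CXC ligands and Cx3cl1 did not pass in either direction. Cxcl16, the membrane-bound ligand of CXCR6 on T and NKT cells, read 6.21, 6.10 and 6.26 in the control, 6.43, 6.14 and 6.23 at 20 min, 6.34, 6.11 and 6.13 at 2 h and 6.44, 6.50 and 6.36 at 4 h. All of its 4 h arrays lay above all of its control arrays, by 0.24 ± 0.08 (SE, n = 3; adjusted p = 0.112, limma), and its mean signal is barely above the floor. Cxcl12 (SDF-1), the CXCR4 ligand of stromal cells, read 7.15, 6.65 and 6.69 in the control, 6.87, 6.67 and 6.65 at 20 min, 7.06, 6.79 and 6.80 at 2 h and 7.09, 6.83 and 6.88 at 4 h. Its replicate 1 did not go with replicates 2 and 3, which were higher at 4 h than in the control. Cxcl14, an epithelial chemokine, read 6.71, 6.50 and 6.35 in the control, 6.86, 6.55 and 6.41 at 20 min, 7.01, 6.25 and 6.38 at 2 h and 7.12, 6.46 and 6.58 at 4 h, a change of 0.20 (95% interval -0.01 to 0.41). Cxcl17, a mucosal chemokine, read 6.54, 6.70 and 6.79 in the control, 6.74, 6.61 and 6.59 at 20 min, 6.85, 6.53 and 6.73 at 2 h and 6.86, 6.56 and 6.64 at 4 h. No direction was shared by its 3 replicates at 4 h. Cx3cl1 (fractalkine), the membrane-tethered ligand of CX3CR1, read 6.64, 6.49 and 6.45 in the control, 6.47, 6.64 and 6.65 at 20 min, 6.62, 6.64 and 6.63 at 2 h and 6.80, 6.46 and 6.60 at 4 h, with a 4 h interval of -0.10 to 0.29.

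Homing CC ligands, which guide lymphocytes to lymphoid tissue, skin and gut, held 12 probe sets of 7 genes, with Ccl17, Ccl19 and Ccl25 above the floor and none called. Ccl25 (TECK), the CCR9 ligand, had 2 probe sets, one of which read 8.57, 8.20 and 8.37 in the control, 8.07, 8.36 and 8.16 at 20 min, 8.82, 8.41 and 8.30 at 2 h and 8.41, 8.48 and 8.36 at 4 h. Its 4 h changes were 0.04 and -0.04 in the 2 probe sets, both with 95% intervals that covered 0. Ccl17 (TARC), a CCR4 ligand, read 6.60, 6.46 and 6.68 in the control, 6.68, 6.61 and 6.64 at 20 min, 6.53, 6.51 and 6.55 at 2 h and 6.49, 6.41 and 6.68 at 4 h, a change of -0.06. The first of 5 Ccl19 probe sets (the CCR7 ligand) read 7.26, 7.27 and 7.19 in the control, 7.37, 7.34 and 7.31 at 20 min, 7.56, 7.27 and 7.24 at 2 h and 7.50, 7.17 and 7.30 at 4 h. Ccl19 has near-identical copies in the mouse genome, so signal may be split or shared among them and its changes, 0.04 to 0.08 over the 5 probe sets at 4 h, are uncertain.

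Most chemokine genes sit in tandem blocks, here taken as members less than 500 kb apart on GRCm38.p6, and the calls can be placed on them. On chromosome 11 the block from 83525778 to 83664683 holds Ccl5, Ccl9, Ccl6, Ccl3 and Ccl4, of which 2 of 5 were called lower. The other block of that chromosome, from 82035577 to 82179812, holds Ccl2, Ccl7, Ccl11, Ccl12, Ccl8 and Ccl1, and 0 of its 6 genes were called, with 3 above the floor. On chromosome 5, 1 of the 5 genes between 90759298 and 90905938 was called (Cxcl2), and 0 of the 3 CXCR3 ligand genes between 92321331 and 92363296. Cxcl13 stands alone, between 95956939 and 95961068. Over all tested probe sets 3.02% were called lower at 4 h, and no test was run on the blocks.

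Sorted by the cells that are known to make them, 14 genes were macrophage or other leukocyte chemokines, 12 hepatocyte or other parenchymal ones and 8 stromal, endothelial or epithelial ones. Several hepatocyte-type ligands, such as Cxcl2 and Ccl2, are also made by macrophages. Cxcl13, counted here as leukocyte-type, is also made by stromal cells, so the split is by textbook emphasis and the counts depend on such placements. Of the 14 leukocyte-type genes 3 fell at 4 h (Ccl5, Ccl9 and Cxcl13), with 6 of the 14 above the floor. Of the 12 hepatocyte-type genes 1 fell (Cxcl2), with 9 above the floor, and of the 8 stromal-type genes 0 were called, with 5 above it, where 3.02% of all tested probe sets were called lower. The median change at 4 h over all genes of a type was -0.05 for the leukocyte type, -0.04 for the hepatocyte type and 0.06 for the stromal type. The summed linear signal of the leukocyte type was lower at 4 h than in the control of the same number by 0.57, 0.64 and 0.55 on the log2 scale. For the hepatocyte type these differences were 0.17, 0.20 and 0.23 lower, and for the stromal type they were 0.18, -0.06 and 0.06, so the sign was shared by all 3 replicates in the first 2 types. A sum follows its brightest members, which for the leukocyte type include the 3 called genes, and no test was run on it or on the difference between types.

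**Figure D4:**
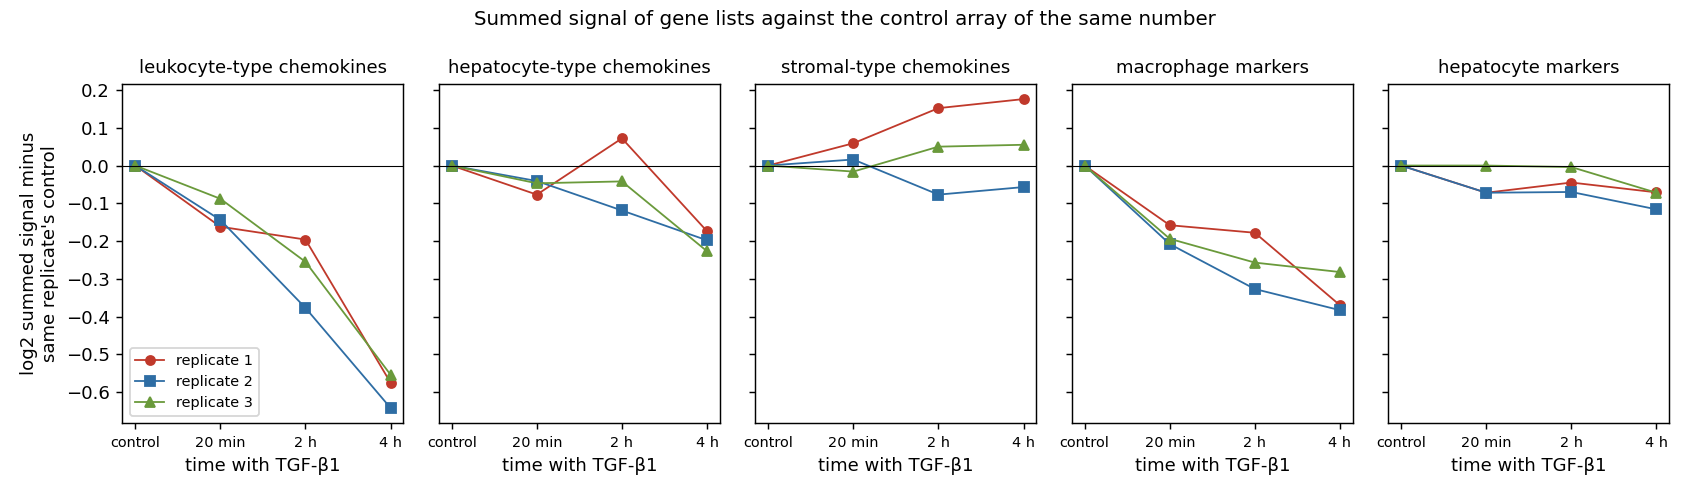
Log2 of the summed signal of each list minus the control array of the same replicate number, against time with TGF-β1, 1 line per replicate. At 4 h the leukocyte-type chemokines are 0.55 to 0.64 lower, the macrophage markers 0.28 to 0.38 lower and the hepatocyte markers 0.07 to 0.12 lower.

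Markers of macrophages fell at 4 h beside these genes. Of 24 Kupffer cell and macrophage markers 18 lay above the floor, and 11 fell and 0 rose at 4 h (median change -0.29, against 0.02 over all tested probe sets). Over all tested probe sets 3.02% were called lower. Among those that fell were Cybb (-0.96), a subunit of the phagocyte oxidase, Fcer1g (-0.85), an Fc receptor chain, and Lyz2 (-0.82), macrophage lysozyme. Of the markers that define macrophages and Kupffer cells, Csf1r (the CSF-1 receptor) fell by 0.57 and Adgre1 by 0.44. Vsig4, Marco and Clec4f were above the floor and not called, with changes of -0.50, -0.08 and 0.07. Cd68, C1qa, Ctss and Ptprc were also above it and not called, with changes of -0.24, -0.16, -0.11 and -0.12. Timd4, Cd5l, Itgam, Msr1, Mrc1 and Clec7a were at the floor. The summed signal of the macrophage list lay between 13.33 and 13.58 at 4 h, against 13.70 to 13.89 in the control, with no overlap. It was already below the control at 20 min, at 13.54 to 13.68, and at 2 h, at 13.52 to 13.61, in every replicate. No test was run on this sum, which follows its brightest members, Cd14 and Cd68. At 20 min and 2 h 0 of the 24 markers were called, as were 0 chemokine ligands and 0 of all tested probe sets. The median change of the markers was -0.05 at 20 min and -0.18 at 2 h. The part of the macrophage list in the fall of Ccl5, Cxcl13, Ccl9 and Cxcl2 was not tested. Of 13 T and NK cell markers 3 were above the floor and of 12 neutrophil markers 4, and none of either list was called. None of 12 B and dendritic cell markers and 7 cholangiocyte markers was called either. Of 14 endothelial markers 2 fell (Lyve1 by 0.37 and Fcgr2b by 0.33), and of 16 stellate cell and fibroblast markers 2 fell (Dcn by 0.48 and Hgf by 0.31). Of 17 hepatocyte markers all were above the floor, and 2 fell at 4 h (Tdo2 by 0.53 and Tat by 0.31, enzymes of tryptophan and tyrosine breakdown). Calls on these lists, and on the receptor, NF-κB and TGF-β target lists below, were not recomputed under the alternatives. Over the whole array 1000 probe sets were called at 4 h, against 31 without the replicate block and 32 without replicate 3.

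The cultures carried few chemokine receptors above the floor. Of 22 measured receptors 7 were above it and 0 were called at 4 h. Among receptors of the called ligands, Ccr1 (mean signal 5.05), Cxcr2 (4.82) and Cxcr5 (5.19) were at the floor, 3 genes named here after their values were seen. Of 25 NF-κB factors, feedback genes and cytokines, 2 fell at 4 h, Nfkbiz, an IκB family member, by 0.32 and Il1rn, the IL-1 receptor antagonist, by 0.28, and 0 rose. Of 8 TGF-β target genes 7 rose at 4 h, among them the feedback gene Pmepa1 at 10.52 in 4 h arrays and 7.74 in the control. The median change of the NF-κB list at 4 h was -0.11, against 0.02 over all tested probe sets, of which 3.02% were called lower and 1.57% higher.

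No chemokine ligand passed at 20 min or 2 h, where 0 of all tested probe sets passed (0%). With unadjusted p values under 0.05, 1 chemokine probe set was found at 20 min and 5 at 2 h. Of all tested probe sets 8.46% were under it at 20 min and 6.28% at 2 h. At 20 min the changes of the probe sets above the floor lay between -0.23 and 0.13, and at 2 h between -0.73 and 0.31. Between 4 h and 2 h no chemokine ligand passed (limma), where 0.078% of all tested probe sets did, and 5 of the 39 had an unadjusted p under 0.05, against 8.83% of all tested probe sets. Between 4 h and 20 min 7 of the 39 had such a p, as did 9.78%, and Cxcl13 was lower (0.184% of all tested probe sets were called lower), with a difference of -1.27 (adjusted p = 0.0413, limma). The F test over all later times passed for 2 of the 39, Ccl5 and Cxcl13, against 1.4% of all tested probe sets.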

How the data were processed

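Total RNA of 12 mouse HPC cultures was hybridised to Affymetrix Mouse Gene 1.0 ST arrays. The authors deposited log2 values that the submitters' notes credit to RMA and to Affymetrix Power Tools, whose versions are not given in the sources used here. The methods name FARMS and, for the strong batch effect, ComBat in the study's own analysis. That batch adjustment is not part of these values. They ranged from 3.84 to 15.22, with array medians from 6.82 to 6.93, 0 missing values and 0 identical arrays; the number of arrays limits the precision.

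Of 35556 probe sets, 21789 with exactly 1 symbol in the platform table were tested, 1621 with several and 12146 not listed were left out. Changes were fitted with limma 3.58.1 in R 4.3.3, with a factor for time and a factor for the replicate number (6 residual and 5.39 prior degrees of freedom), Benjamini-Hochberg adjustment and a call at 0.05. The script was tested on simulated data. The study's methods use the replicate number as a factor, and it was kept here as a block. Same-numbered arrays deviated together (correlation 0.555 to 0.881 over 18 pairs). Arrays of replicates 2 and 3 also correlated with each other, at 0.539 to 0.722. Within number 2 the correlation was 0.555 to 0.794 and within number 3 it was 0.644 to 0.707. These values set replicate 1 apart but do not show that numbers 2 and 3 pair the samples.

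Every chemokine ligand could be named. Those above the floor are given by array and those at it by range. Other lists are counted, with up to 3 genes past the threshold at 4 h with the largest change named. Beyond this rule, Csf1r, Adgre1 and markers that were not called are named from the macrophage list, and 3 receptors at the floor. Members and lists were chosen with earlier results of these data known. Alternatives were the block, normalization, filter, prior, weights, probe set choice, threshold, floor and leaving out each array or replicate number. Gene positions and promoters come from RefSeq on GRCm38.p6. A 1 h time point of the methods was not analysed here.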

Additional observations from a re-analysis of the deposited data

Results flagged for a closer look

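Cxcl13 differed between time points in its change under TGF-β1. Its change against the control was -1.14 at 4 h and 0.13 at 20 min, and the contrast of the 4 h with the 20 min arrays was -1.27 (adjusted p = 0.0413, limma). In each replicate the 4 h array was below the 20 min array. The cause was not tested.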

How the results depend on the processing

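The calls at 4 h depended on how the replicate numbers were handled. With them as a block 4 chemokine ligands were called; with no replicate block 0 were, and with the number as a random effect 0, where 31 and 225 probe sets over the whole array were called against 1000. The 4 h count was 2 over all probe sets of the file (Ccl5 and Ccl9), 2 with only the arrays of the compared groups (Ccl3 and Ccl5), 0 at an adjusted p under 0.01 with at least a 2-fold change, and 0 to 5 when a replicate or an array was left out. The 4 h count was 6 with array weights, with Ccl2 and Cxcl1 added, and 4 with a trended and robust prior, with Cxcl9 in place of Cxcl13. It was 0 without replicate 3 and 1, Ccl5, without replicate 2. Leaving out replicate 1 gave 4, of which Ccl5 and Cxcl13 were shared with the full fit. The 2 h count was 0 to 1 with replicates or arrays left out, the 1 being Cxcl13 without replicate 1. The F test count of 2 became 0 with no replicate block, with the random effect, over all probe sets and at the stricter threshold, 1 after quantile normalization or with a trended and robust prior, 5 with array weights, and 0 to 3 with a replicate or an array left out. Counts at 20 min and between 4 h and 2 h stayed at 0 under all alternatives run. Of 1473 recomputed gene changes 1430 kept their side of the threshold, 35 lost a call, 8 gained one and 0 called changes turned sign. Most of the recomputed changes were not called in the full fit and so had no call to lose. All 35 losses fell on the 4 changes called at 4 h, with 25 alternatives each. Ccl5 lost its call in 3 of them, Ccl9 in 9, Cxcl13 in 11 and Cxcl2 in 12. The number of genes above the floor was 20, and 11 with the floor at the 99th percentile of the receptors or at the median of the tested probe sets. Signals near the floor limit what can be read from 14 of the 34 genes. The causes of these differences were not tested.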

Other observations

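The 7 probe sets on chemokine genes with several symbols were outside the comparisons. The 4 probe sets on the Ccl21 copies, ligands of CCR7, held the same values, with a mean of 6.77 and a change at 4 h of -0.14 (adjusted p = 0.373, limma over all probe sets of the file). The 3 on the Ccl27 copies, ligands of CCR10, had means of 8.50, 8.50 and 8.91, with changes of -0.28, -0.28 and -0.25 (adjusted p of 0.274, 0.274 and 0.283 in the same fit). The copies of either gene cannot be told apart by these probe sets.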
